A study of Mus musculus with 15 samples.

Results

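The 10 arrays described here came from tibialis anterior (TA) muscle and were chosen by 2 measured values out of 15 arrays in all. An array was kept if its brightest probe for Cdkn1a, the gene of the cell cycle inhibitor p21, had a signal of at least 1000. The kept arrays were then split at a signal of 3700 of the brightest probe for Fbxo32, the gene of atrogin-1. This gave 6 Fbxo32-high arrays and 4 Fbxo32-low arrays, and left 5 p21-low arrays outside the split. Both sets come from measured signals and are not groups of the study, so differences between them are described for every gene and none of them is tested.

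The mice were males of 8 to 10 weeks by the labels, of a strain named C57BL/6 in the labels and C57BL/6J in the study's methods. The 5 labelled Ctrl had been given PBS, the 5 labelled Dox had been given doxorubicin, a DNA-damaging chemotherapy drug, and the 5 labelled Dox + sACVR2B had been given a soluble activin receptor (sACVR2B-Fc) 48 hours before doxorubicin. Muscles were taken 20 hours after the injection of doxorubicin or PBS, and RNA of each mouse was run on 1 Illumina bead array. A signal is the array intensity after background subtraction and quantile normalisation, and differences are between means of log2(signal + 50).

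Atrogin-1 is the substrate-binding subunit of a muscle ubiquitin ligase. Together with MuRF1, a ligase encoded by Trim63, it is the usual transcript marker of muscle atrophy, and FoxO transcription factors, glucocorticoids and fasting are known to raise both. p21 is a direct target of p53 and is induced by DNA damage, so the choice of arrays asks which transcripts go with atrogin-1 while a p53 target is high in each array.

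The Cdkn1a signal was 3623, 4052 and 4634 at the lowest, the median and the highest of the Fbxo32-high arrays. In the Fbxo32-low arrays it was 2359, 3316 and 2694 in the libraries labelled Dox 1, Dox 4 and Dox 5, and 4560.3 in that labelled Dox + sACVR2B 1. The p21-low arrays had 132 to 359. No array lay near the threshold, since the nearest below it was Dox + sACVR2B 5 at 359 and the nearest above it was Dox 1 at 2359.

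The Fbxo32 signal, on which the split was made, was 6150.4, 6728 and 8551 in Ctrl 1, Ctrl 4 and Ctrl 5, 4484 in Dox 3, and 6956 and 4277 in Dox + sACVR2B 2 and Dox + sACVR2B 3. These are the Fbxo32-high arrays. In the Fbxo32-low arrays it was 2157 in Dox 1, 1943 in Dox 4, 2064 in Dox 5 and 3230.5 in Dox + sACVR2B 1, so the threshold lay between Dox + sACVR2B 1 at 3230.5 and Dox + sACVR2B 3 at 4277. The p21-low arrays ranged from 1149 to 3608. Of the other kept probes of Fbxo32, 1 did not overlap between the sets, with a log2 difference of 1.43, and 1 overlapped, with 1.07.

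**Figure D1:**
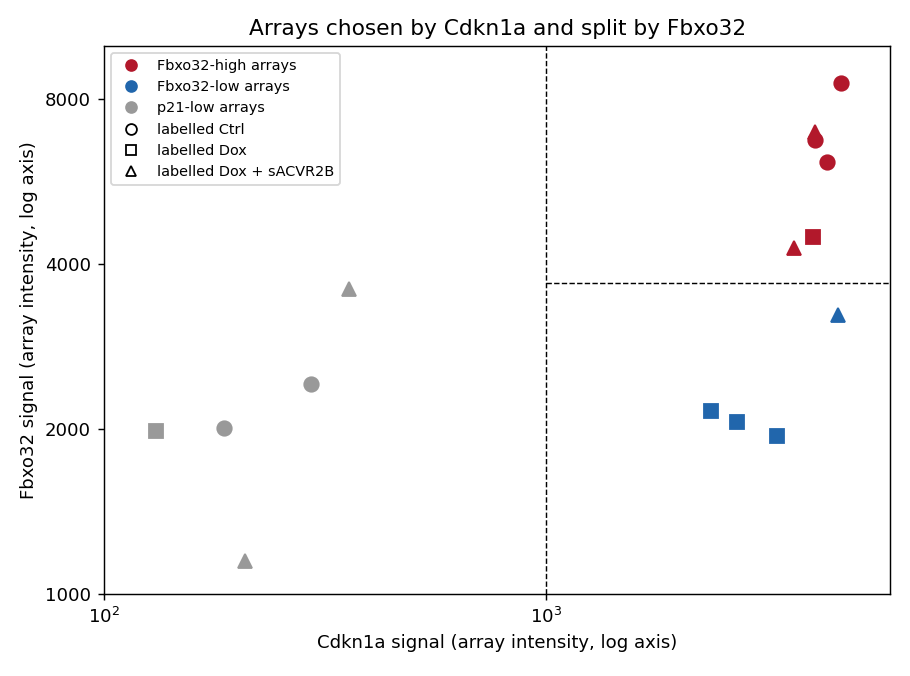
Cdkn1a signal (x axis) against Fbxo32 signal (y axis) in 15 arrays, both array intensities on log axes; colour gives the set, marker shape the label, and dashed lines the thresholds of 1000 and 3700. The p21-low arrays lie at 132 to 359 on the x axis and the others at 2359 to 4634, and the widest vertical spread is among the latter.

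The labels did not follow the Cdkn1a signal. The Fbxo32-high set held 3 libraries labelled Ctrl, 1 labelled Dox and 2 labelled Dox + sACVR2B, and the Fbxo32-low set held 3 labelled Dox and 1 labelled Dox + sACVR2B. High signals of a p53 target in 3 libraries labelled as PBS, and low signals in 3 libraries labelled as given doxorubicin, put the labels in doubt, and each comparison by label below rests on them. The labels were kept as they are. Fibre transcripts of the labelled tissue were bright in all 15 arrays, with Ckm at 18566 to 26779 and Myh4 at 16587 to 23511.

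Of 11458 genes, 7 were higher in the Fbxo32-high arrays by at least 1.5-fold with no overlap between the sets, which is 0.0611% of the genes, and Fbxo32 itself is 1 of them by the rule. The others were Adh1, Klhl38, Rab27a, Sesn1, Lrrc2 and Trim63. In the other direction 6 genes, or 0.0524%, were lower without overlap, and these were Irf5, Rab15, G0s2, Aimp2, Uhrf1 and BC048679. The total of 13 depended on single arrays and on the place of the split: it was 95 without Dox + sACVR2B 1, 55 without Dox + sACVR2B 3, and 87 with the split at the widest gap in Fbxo32, where 9 of the 13 were among them. With fewer arrays, or with sets of 3 and 7, a lack of overlap is easier to reach. Part of these rises is therefore built into the way of counting. Without a limit on the fold, 124 genes (1.08%) were higher and 63 genes (0.55%) lower with no overlap. The median difference over all genes was 0.01, which the quantile normalisation holds near 0.

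Promoters of 3 of these genes are shown because they hold a motif searched for in the leading genes. The search covered the FoxO motif GTAAACA or its reverse complement TGTTTAC, and the E-box CACGTG, which is bound by clock proteins and others and reads the same on both strands. RefSeq promoters (GRCm38.p6, 250 bases before to 50 bases after a start site) were found for 11 of the 13 leading genes, 17 promoters in all. Fbxo32 itself and Klhl38 had no entry, so their promoters were not searched. The FoxO motif is in 3.65% and the E-box in 7.15% of all 32851 promoters of this length. The motif is in capitals in each sequence below, 5′ to 3′. Trim63 (chr4:134314870-134315169, plus strand) and Sesn1 (chr10:41810324-41810623, plus strand) hold the FoxO motif, and Adh1 (chr3:138277335-138277634, plus strand) holds the E-box.
Trim63: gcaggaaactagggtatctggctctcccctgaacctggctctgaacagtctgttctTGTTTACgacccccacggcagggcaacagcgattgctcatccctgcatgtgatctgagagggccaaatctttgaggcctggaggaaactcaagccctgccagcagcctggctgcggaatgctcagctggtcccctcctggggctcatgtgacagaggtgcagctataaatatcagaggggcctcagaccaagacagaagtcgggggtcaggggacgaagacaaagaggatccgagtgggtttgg
Sesn1: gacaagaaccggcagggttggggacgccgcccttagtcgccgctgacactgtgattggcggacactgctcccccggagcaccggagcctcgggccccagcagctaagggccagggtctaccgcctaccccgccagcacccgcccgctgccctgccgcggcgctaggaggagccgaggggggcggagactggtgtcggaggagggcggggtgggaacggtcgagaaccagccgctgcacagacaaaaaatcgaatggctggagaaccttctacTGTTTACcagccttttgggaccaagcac
Adh1: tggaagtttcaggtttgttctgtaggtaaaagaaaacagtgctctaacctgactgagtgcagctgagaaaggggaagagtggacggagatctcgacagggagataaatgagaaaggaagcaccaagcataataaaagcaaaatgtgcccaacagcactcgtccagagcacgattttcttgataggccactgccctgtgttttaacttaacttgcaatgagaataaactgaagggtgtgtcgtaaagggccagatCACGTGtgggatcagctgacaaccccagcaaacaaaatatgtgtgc
The Sesn1 motif is in 1 of the 2 promoters listed for that gene, and the E-box was also found in 1 of the promoters of Rab27a. A match is a description of these letters and does not show that a factor binds there.

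Trim63 encodes MuRF1, the partner of atrogin-1 as an atrophy marker. Its signal was 501, 608 and 742 at the lowest, the median and the highest of the Fbxo32-high arrays. In the Fbxo32-low arrays it was 359.8 in Dox 1, 443 in Dox 4, 279.9 in Dox 5 and 369 in Dox + sACVR2B 1. The sets did not overlap and differed by 0.68 on the log2 scale. The p21-low arrays, at 393 to 749, overlapped with both sets, so Trim63 did not separate them from either.

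Klhl38, a kelch-like protein of a family whose members often bring substrates to cullin-3 ubiquitin ligases, is the next protein-coding gene to Fbxo32 on chromosome 15 in the RefSeq annotation. Its signal was 115, 186 and 208 at the lowest, the median and the highest of the Fbxo32-high arrays. In the Fbxo32-low arrays it was 65.1 in Dox 1, 61.0 in Dox 4, 63.3 in Dox 5 and 80.5 in Dox + sACVR2B 1. The log2 difference was 0.87 (1.83-fold), and the lowest arrays of the high set, Dox 3 at 115 and Dox + sACVR2B 3 at 118, are also its lowest in Fbxo32. Other neighbours of Fbxo32 that were above noise had differences near 0, with 0.02 for Wdyhv1 on the other side, 0.09 for Fam91a1 and 0.15 for Zhx1, and the arrays overlapped for each.

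Sesn1 encodes sestrin 1, a stress protein that restrains mTORC1 and is a known target of p53 and of FoxO factors. Its signal was 917, 1107 and 1548 at the lowest, the median and the highest of the Fbxo32-high arrays, and 689 in Dox 1, 818 in Dox 4, 474 in Dox 5 and 721 in Dox + sACVR2B 1. This difference was 0.77 (1.70-fold) on the log2 scale with no overlap, and the p21-low arrays reached 573 to 875, which overlapped with the low set and stayed below the high set. Of the 2 other kept probes of Sesn1, 1 did not overlap, with a difference of 0.83, and 1 overlapped, with 0.23. The probes therefore differ on how far this transcript followed Fbxo32.

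Adh1, an alcohol dehydrogenase that also oxidises retinol, had the widest difference after Fbxo32 among genes without overlap. Its signal was 1272, 1456 and 1991 at the lowest, the median and the highest of the Fbxo32-high arrays, and 934 in Dox 1, 691 in Dox 4, 527 in Dox 5 and 798 in Dox + sACVR2B 1. Means differed by 1.03 on the log2 scale (2.05-fold), and the difference was 0.94, again without overlap, on the other kept probe of Adh1. The p21-low arrays had 389 to 577, so that Adh1 was high in the arrays with both transcripts high and lower in the rest.

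Rab27a encodes a small GTPase that docks secretory vesicles at the cell membrane. Its signal was 87.5, 162 and 269 at the lowest, the median and the highest of the Fbxo32-high arrays, and 75.8 in Dox 1, 79.2 in Dox 4, 46.1 in Dox 5 and 80.3 in Dox + sACVR2B 1. The sets differed by 0.85 on the log2 scale (1.80-fold), and the nearest array of the high set was Dox + sACVR2B 3 at 87.5. The p21-low arrays had 55.1 to 85.9 and lay with the Fbxo32-low arrays.

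Lrrc2, a leucine-rich repeat protein of striated muscle, had signals of 467, 506 and 673 at the lowest, the median and the highest of the Fbxo32-high arrays. The Fbxo32-low arrays had 309.6 in Dox 1, 214 in Dox 4, 301 in Dox 5 and 442 in Dox + sACVR2B 1, a log2 difference of 0.72. The p21-low arrays had 559 to 988 and lay at the level of the high set or above it, so Lrrc2 was lowest where Cdkn1a was high and Fbxo32 low.

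Among the genes lower in the Fbxo32-high arrays the widest was Irf5, a transcription factor of inflammatory genes in macrophages and other immune cells. Its signal was 137, 179.8 and 304 at the lowest, the median and the highest of the Fbxo32-high arrays, and 399 in Dox 1, 425 in Dox 4, 670.2 in Dox 5 and 338 in Dox + sACVR2B 1. On the log2 scale the difference was -1.02, which is 2.03-fold higher in the low set, and the p21-low arrays had 322 to 746. In bulk tissue, fewer cells of a type and less RNA per cell cannot be told apart. Of 17 measured macrophage and monocyte markers, 15 had a lower mean in the Fbxo32-high arrays and 2 a higher one, with a median difference of -0.27. All 17 overlapped between the sets. Their summed signal was 5848 to 10256 in the Fbxo32-high and 6185 to 11048 in the Fbxo32-low arrays, and the part of these cells in the Irf5 values was not tested. Adgre1 and Csf1r, which define macrophages, were above noise, and Cd68 and Ptprc were not among the genes kept.

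Rab15, a small GTPase of endosome recycling, had signals of 147, 225 and 263 at the lowest, the median and the highest of the Fbxo32-high arrays. The Fbxo32-low arrays had 406 in Dox 1, 825 in Dox 4, 399 in Dox 5 and 282 in Dox + sACVR2B 1, so the log2 difference of -0.93 rested partly on Dox 4. Leaving out each array in turn gave differences from -1.12 to -0.65. The p21-low arrays, at 224 to 509, overlapped with both sets.

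G0s2 encodes an inhibitor of the fat-splitting lipase ATGL. Its signal was 145, 327 and 485 at the lowest, the median and the highest of the Fbxo32-high arrays, and 486 in Dox 1, 589.7 in Dox 4, 785 in Dox 5 and 578 in Dox + sACVR2B 1. The log2 difference was -0.81 (1.75-fold higher in the low set), yet the nearest arrays of the sets stood at 485 and 486. The p21-low arrays had 468 to 1228.

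Aimp2, a scaffold of the complex that joins several tRNA synthetases, had signals of 1209, 1362 and 1840.5 at the lowest, the median and the highest of the Fbxo32-high arrays. The Fbxo32-low arrays had 2358 in Dox 1, 2272 in Dox 4, 2664 in Dox 5 and 1953 in Dox + sACVR2B 1. The log2 difference was -0.65 (1.57-fold higher in the low set), and on the other kept probe of Aimp2, where the arrays overlapped, it was -0.55.

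The last 2 of these genes were dim. Uhrf1, which maintains DNA methylation in dividing cells, had signals of 6.60, 22.4 and 30.2 at the lowest, the median and the highest of the Fbxo32-high arrays, and 47.1, 86.0, 65.3 and 40.3 in Dox 1, Dox 4, Dox 5 and Dox + sACVR2B 1. The noise threshold was 12.4 and part of the high set lay under it, so the size of the log2 difference of -0.65 is uncertain. It ran from -1.09 to -0.41 over the alternatives. Another probe of Uhrf1, too dim to be kept, had -0.06 with overlap. BC048679, known only by a clone name here, had 34.7, 48.1 and 54.3 in the high set and 75.4, 192, 88.1 and 59.4 in the same 4 arrays, a log2 difference of -0.60.

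**Figure D2:**
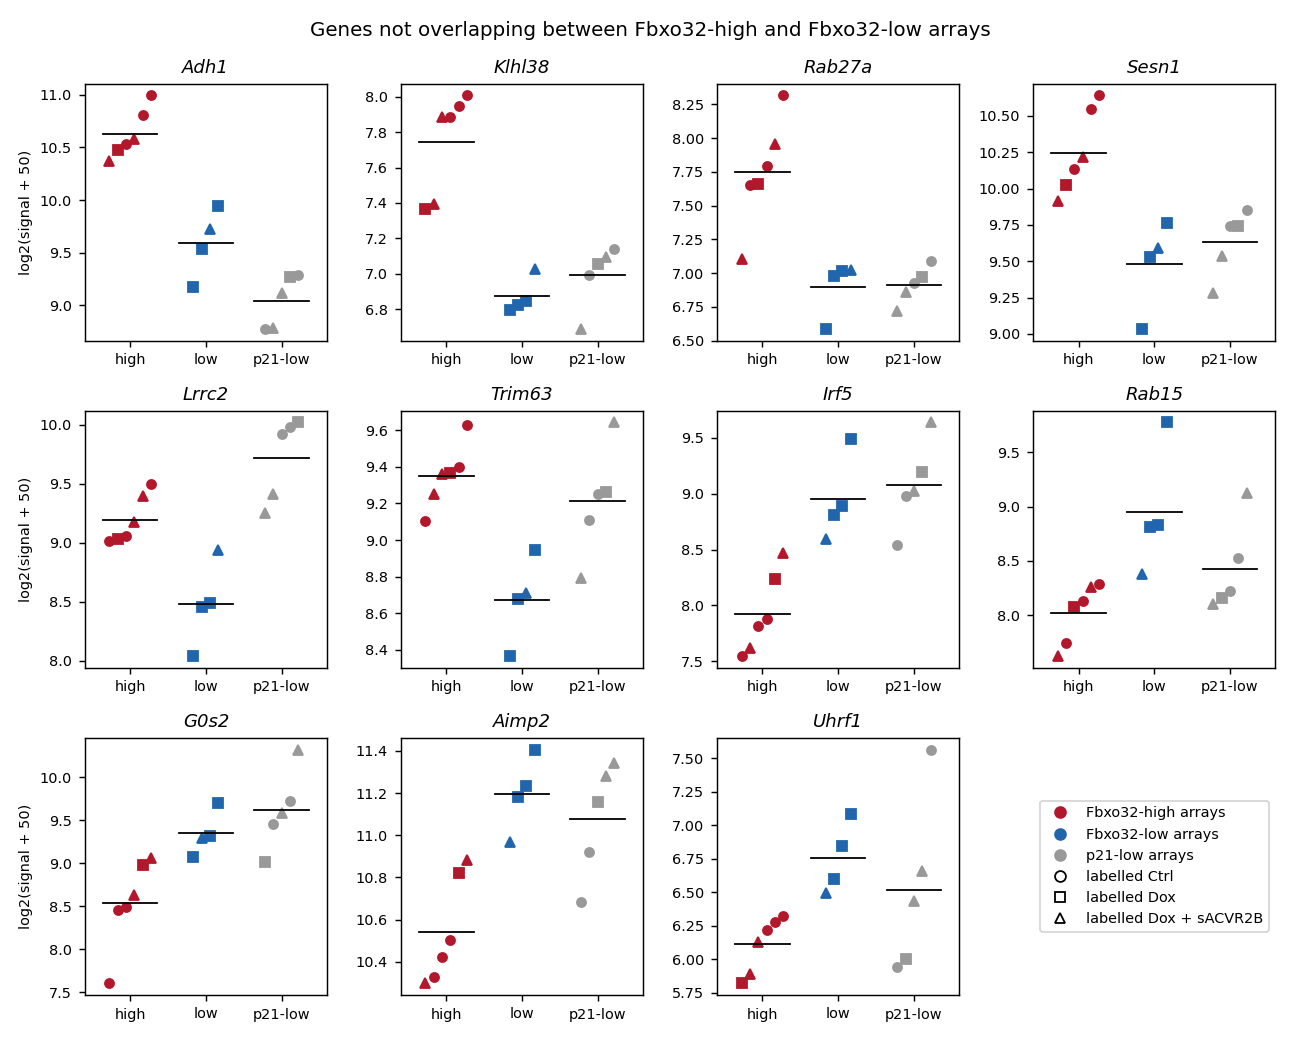
Levels as log2(signal + 50) (y axis) of 11 genes in the Fbxo32-high, Fbxo32-low and p21-low arrays (x axis); points are arrays, marker shapes their labels and black lines the means. The red and blue points do not overlap in any panel, by the choice of these genes, while the grey p21-low arrays lie with the low set in Rab27a, at 55.1 to 85.9 in signal, and at or above the high set in Lrrc2.

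The same differences within 1 label are described next, since a label can lie on both sides of the split. Among libraries labelled Dox, Dox 3 was in the high set and Dox 1, Dox 4 and Dox 5 in the low set. For Adh1 the log2 difference within this label was 0.92, for Rab27a 0.80, for Lrrc2 0.71, for Trim63 0.70, for Sesn1 0.58 and for Klhl38 0.55. Among libraries labelled Dox + sACVR2B, where arrays 2 and 3 were in the high set and array 1 in the low set, it was 0.75 for Adh1, 0.61 for Klhl38, 0.60 for Trim63, 0.51 for Rab27a, 0.48 for Sesn1 and 0.34 for Lrrc2. The lower genes Irf5, Rab15, G0s2, Aimp2, Uhrf1 and BC048679 had -0.83, -1.06, -0.39, -0.45, -1.02 and -0.93 within the label Dox. Within the label Dox + sACVR2B they had -0.56, -0.44, -0.45, -0.38, -0.48 and -0.16, in the same order. The sign of all these values is fixed by the lack of overlap. Their size is smaller within the label Dox + sACVR2B than over all 10 arrays for each of the higher and lower genes.

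Tests across the arrays were made by label alone, with limma on all 15 arrays. None of the 21307 probes passed an adjusted p of 0.05 for Dox against Ctrl (0%, with 2130 probes at an unadjusted p under 0.05), for Dox + sACVR2B against Dox (0%, with 881) or for Dox + sACVR2B against Ctrl (0%, with 1910). For Fbxo32 the log2 difference of Dox from Ctrl was -0.88 (SE 0.43, limma adjusted p = 0.509), from 12.13 ± 0.93 in Ctrl to 11.25 ± 0.50 in Dox (SD, n = 5 each). The smallest adjusted p of the leading genes was that of Aimp2, which was 0.59 higher in Dox than in Ctrl (SE 0.17, limma adjusted p = 0.338). Klhl38 was lower by a log2 difference of -0.62 (SE 0.22, limma adjusted p = 0.394) and Sesn1 by -0.56 (SE 0.21, limma adjusted p = 0.400). Since 3 of the libraries labelled Ctrl are in the high set and 3 labelled Dox in the low set, this contrast shares most of its arrays with the split and is no separate evidence about these genes.

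The largest differences between the sets were in genes whose arrays overlapped, and the genes named here were picked with their values in view. Of all genes, 44 had a mean at least 1.5-fold higher in the Fbxo32-high arrays and 50 a mean at least 1.5-fold lower, overlapping or not. Chac1, a glutathione-degrading enzyme induced by the stress factor ATF4, had signals of 443, 4978 and 8838 at the lowest, the median and the highest of the Fbxo32-high arrays. In the Fbxo32-low arrays it was 538 in Dox 1, 186 in Dox 4, 105 in Dox 5 and 1764 in Dox + sACVR2B 1. The means differed by 3.07 on the log2 scale (8.39-fold), and the overlap came from Dox + sACVR2B 3, the lowest of the high set at 443. The p21-low arrays had 678 to 7932, so high Chac1 also occurred without high Cdkn1a.

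Mss51, a protein of muscle mitochondria, had signals of 383 to 574 in 5 of the Fbxo32-high arrays and 39.7 in Dox + sACVR2B 3. In the low set it was 35.9 in Dox 1, 60.8 in Dox 4 and 33.7 in Dox 5, but 541 in Dox + sACVR2B 1. Dox + sACVR2B 1 and Dox + sACVR2B 3 thus lay with the opposite set, while Dox + sACVR2B 2 lay with its own at 500.5, and the log2 difference of 1.40 averages over this.

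Asb2, the substrate receptor of a muscle ubiquitin ligase that acts on filamins, showed part of the same layout. The Fbxo32-high arrays had 9005, 11326 and 12827 at the lowest, the median and the highest, and Dox 1, Dox 4 and Dox 5 had 5242, 6233 and 5497, whereas Dox + sACVR2B 1 had 11587. The log2 difference was 0.71, and within the label Dox + sACVR2B it was -0.18.

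Tfrc, the transferrin receptor for iron uptake, ran the other way. It was 6249 in Dox 1, 6766 in Dox 4 and 7382 in Dox 5, against 1958 in Dox + sACVR2B 1, and 1292, 1733 and 3922 at the lowest, the median and the highest of the Fbxo32-high arrays. The highest of these was Dox + sACVR2B 3, and the log2 difference was -1.37. Nmrk2, a muscle kinase of NAD synthesis, differed by -1.53 and Aqp4, the water channel of fast fibres, by -1.19, both with overlap. Nmrk2 stood at 3836 to 6032 in the p21-low arrays, above the 39.7 to 449 of the Fbxo32-high arrays and the 173 to 1301 of the Fbxo32-low arrays, so it set the p21-low arrays apart more than it split the others.

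**Figure D3:**
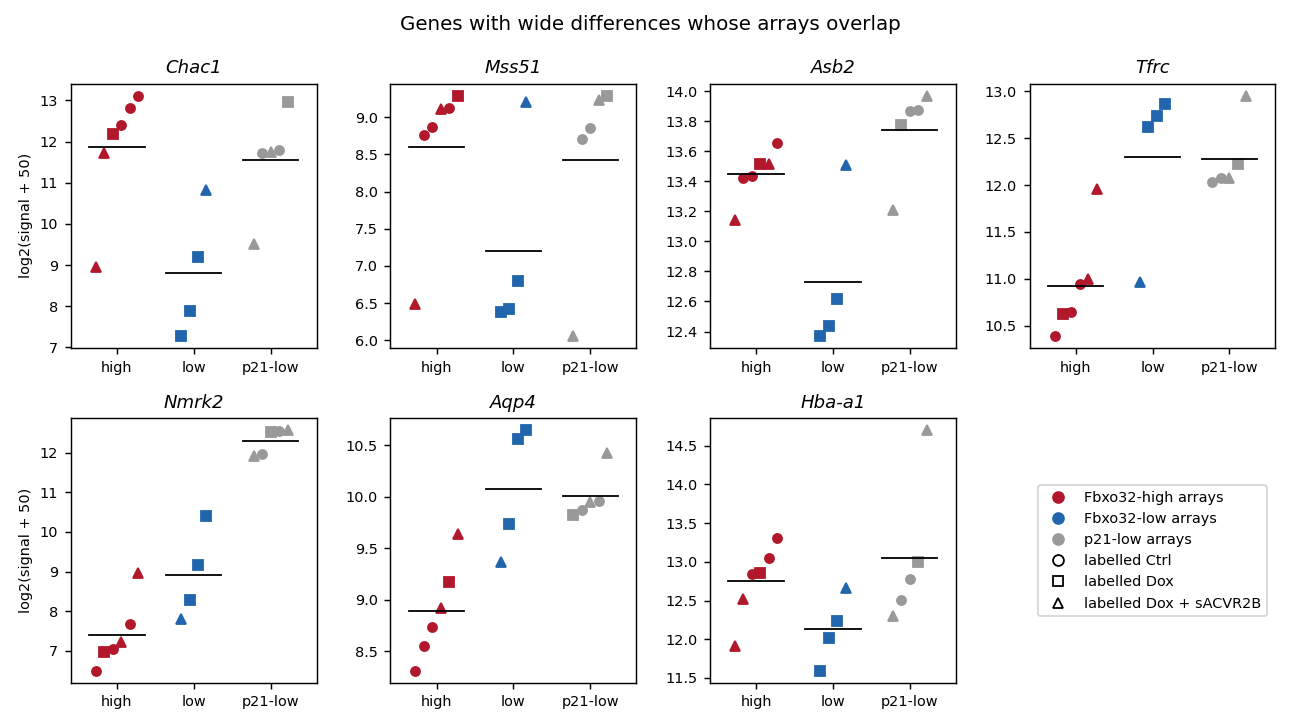
Levels as log2(signal + 50) (y axis) of 7 genes with wide differences but overlapping arrays, by set (x axis); points are arrays, marker shapes their labels and black lines the means. In Chac1, Mss51 and Tfrc a triangle of the high set (Dox + sACVR2B 3) lies nearest the blue squares, and the triangle of the low set (Dox + sACVR2B 1) lies toward the red points, as with 39.7 against 541 for Mss51.

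Dox + sACVR2B 1 and Dox + sACVR2B 3, the 2 arrays nearest to the Fbxo32 threshold, lay across the split most often. Each array was placed on the side of the midpoint of the 2 means for each gene that differed by at least 1.5-fold, leaving out Fbxo32. Of 43 genes higher in the high set, Dox + sACVR2B 3 was on the low side in 30 (69.8%), and Dox + sACVR2B 1 was on the high side in 27 (62.8%). Of 50 genes lower in the high set, the former was on the other side in 33 (66.0%) and the latter in 41 (82.0%). The next was Dox 3, with 9 genes (20.9%) and 11 genes (22.0%), and Ctrl 4 and Dox 5 were on the other side in 0 of the 43 higher genes. These genes were picked on the same means, so the shares describe the arrays and test nothing.

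**Figure D4:**
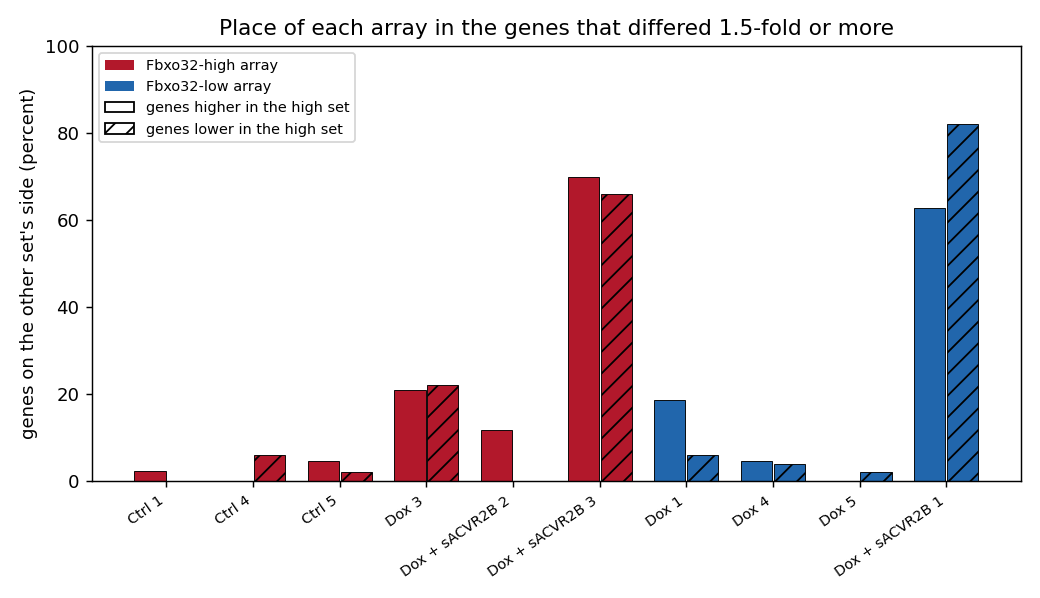
Share of genes (y axis, percent) for which each of the 10 arrays (x axis) lay nearer the mean of the other set, for 43 genes higher (plain bars) and 50 genes lower (hatched bars) by at least 1.5-fold in the Fbxo32-high arrays. Dox + sACVR2B 3 and Dox + sACVR2B 1 reach 66.0% to 69.8% and 62.8% to 82.0%, and no other bar is above 22.0%.

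The count of genes that kept apart moved with these 2 arrays. Leaving out any array makes a lack of overlap easier to reach, so some rise is built in. Without Dox + sACVR2B 1 it was 95 in place of 13, and without Dox + sACVR2B 3 it was 55, with all 13 genes included each time. Both settings shared 28 genes. Without Dox + sACVR2B 1, Tfrc (-1.81), Myom3 of the sarcomere M-band (-1.43) and Aqp4 (-1.42) no longer overlapped. Among the higher genes Rps6ka5 (1.20), Ccl21a (1.18) and Inmt (1.13) no longer did. The same held for the sulfotransferase Sult1a1 (1.12) and the IGF-binding protein Igfbp3 (1.01), which recur in the next setting. Without Dox + sACVR2B 3 it was Chac1 (3.65), Sult1a1 (1.07), Igfbp3 (1.00), Nmrk2 (-1.84) and Aqp4 (-1.34). Without Dox 1 the count was 26 and without Dox 3 it was 20, whereas the other 6 arrays moved it to between 12 and 16.

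Gene lists were used to see whether pathways known to act on atrogin-1 differed along with it. They are described by counts and medians beside the median of 0.01 over all genes, whose quartiles were -0.09 and 0.10 and of which 5932 were above 0. Counts and medians include Fbxo32 or Cdkn1a where a list holds them. Members named as not overlapping stand beside the 1.08% of all genes that were higher and the 0.55% that were lower without overlap. Of the 22 measured ubiquitin ligases and deubiquitinases of muscle atrophy, 14 had a higher mean and 8 a lower mean in the Fbxo32-high arrays, with a median of 0.07. Fbxo32, whose separation the rule fixes, and Trim63 were higher without overlap, as were 1.08% of all genes, and no member was lower without overlap. Asb2 followed, and Fbxo31, an F-box protein, differed by 0.34 with overlap. Of 40 measured genes of the common atrogenes, 24 were higher and 16 lower, with a median of 0.02, and Fbxo32, Trim63 and the proteasome activator Psme4 (0.35) did not overlap. A second probe of Psme4 had the opposite sign, at -0.03.

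Transcription factors of the FoxO, KLF and C/EBP list had mostly higher means in the Fbxo32-high arrays. The list also holds factors of other families, among them Rela, Relb, Stat3, Smad3, Tgif1 and Bcl6. Of its 15 measured members, 11 were higher and 4 lower, and all overlapped. Their median was 0.16, above the upper quartile of all genes. Foxo1, a main activator of Fbxo32 and Trim63, had 314, 426 and 600.2 at the lowest, the median and the highest of the Fbxo32-high arrays and 304, 421, 267 and 376 in Dox 1, Dox 4, Dox 5 and Dox + sACVR2B 1. The difference was 0.31 with overlap. Foxo1 was lower in the p21-low arrays, at 162 to 239.5, than in each of the other 10. Cebpb differed by 0.36 and Klf15 by 0.32, again with overlap. Within the label Dox the differences were 0.53 for Foxo1, 0.63 for Cebpb and -0.43 for Klf15. Within the label Dox + sACVR2B they were -0.03, -0.15 and 0.68, so none of these genes kept its direction in both labels.

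Of 23 measured glucocorticoid response genes, 20 had a higher mean in the Fbxo32-high arrays and 3 a lower one, with a median of 0.12. Sesn1 alone did not overlap, as was so for 1.08% of all genes in this direction. The same gene is also on the p53 and mTORC1 lists and is the member without overlap in each. Arrdc2, an arrestin-domain gene, had 1162, 1288 and 1889.6 at the lowest, the median and the highest of the high set. In the low set it was 617 in Dox 4, 409 in Dox 5 and 562 in Dox + sACVR2B 1, but 1479 in Dox 1. Per1, a clock gene with a glucocorticoid response element, had the same layout, with 510.4 to 844 in the high set, 849 in Dox 1 and 189 to 368 in the other low arrays. The differences were 0.99 and 0.86, and Dox 1 was the array that overlapped in both. Ddit4, which encodes the mTORC1 brake REDD1, differed by 0.61, from 447 to 771 in the high set against 213 to 525 in the low set. The difference of Ddit4 was 0.79 within the label Dox and -0.18 within the label Dox + sACVR2B. Tsc22d3 and Pdk4, glucocorticoid-induced genes also picked with their values in view, differed by 0.28 and 0.06. The widest of the 3 lower members was Angptl4, at -0.52 with overlap.

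The clock list held 16 measured genes, of which 12 were higher and 4 lower, with a median of 0.15. Clock itself, at 0.15, was the member that did not overlap. Per2 and Per3 differed by 0.24 each, with overlap, so Per1 stood apart from its relatives in size.

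Cdkn1a was high in both sets by the choice of arrays, and other p53 targets played no part in it. Of 30 measured targets, Cdkn1a included, 18 were higher and 12 lower in the Fbxo32-high arrays, with a median of 0.05. Sesn1, which is also on the glucocorticoid list, was the only 1 without overlap. Mdm2, the ubiquitin ligase of p53, had 3108 to 4385 in the high and 2383 to 4540.0 in the low set, a difference of 0.14. Ccng1, cyclin G1, differed by 0.05. Cdkn1a, used by the rule, differed by 0.38 with overlap, and its other kept probes by 0.43 and 0.63, also with overlap. Sesn2 (-0.45) and the repair gene Mgmt (-0.40) had lower means in the high set.

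Pathways of protein breakdown other than the ligases showed small differences. Of 32 measured autophagy and lysosome genes, 27 were higher and 5 lower in the Fbxo32-high arrays, with a median of 0.08. Tbc1d1 (0.62), Gabarapl1 (0.48) and the autophagy kinase Ulk1 (0.45) led them with overlap. Within the label Dox + sACVR2B they did not keep that direction, with -0.42 for Tbc1d1, -0.03 for Gabarapl1 and -0.25 for Ulk1. Within the label Dox they had 0.94, 0.57 and 0.76. Uvrag (0.23) did not overlap, at 301 to 375 in the high and 232 to 301 in the low set. Of 31 proteasome subunits, 16 were higher and 15 lower, with a median of 0.00, and Psme4 was again the only 1 apart.

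Transcript lists of upstream pathways had members in both directions. The activity of these pathways was not measured. The IGF, insulin and Akt list had 12 of 19 higher and 7 lower, with a median of 0.09 and all overlapping. Igfbp3 (0.85) and Igf1 (-0.40) were its widest members. The mTORC1 list had 12 of 20 higher and 8 lower, with a median of 0.03. Of 22 genes of myostatin, activin and BMP signalling, 9 were higher and 13 lower, with a median of -0.02, and the BMP target Id2 (-0.36) did not overlap on its brightest probe but had 0.08 on the next. The fasting and PPAR list was split evenly, 13 to 13, with Angptl4 (-0.52) and Ppargc1a (-0.46) as its widest members. Of 19 genes of the ATF4 response, 11 were higher and 8 lower, so the wide difference of Chac1 was not shared by its list, whose median was 0.08.

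Heat shock proteins had lower means in the Fbxo32-high arrays in 16 of 20 measured genes, with a median of -0.22. The small heat shock proteins Hspb1 (-0.41), Hspb7 (-0.33) and Cryab (-0.30) and the co-chaperone Dnajb4 (-0.34) were the widest, each with overlap, and Chordc1 (-0.24) was the only member without. Within the label Dox these widest genes had -0.88, -0.51, -0.21 and -0.71, in the same order. Within the label Dox + sACVR2B they had 0.30, -0.06, -0.08 and -0.36, so Hspb1 did not keep its direction. Of 23 myogenic, denervation and fibre stress genes, 17 were lower and 6 higher, with a median of -0.09 and all overlapping. Neonatal myosin Myh8 differed by -0.83, but its low level of 118 in Dox + sACVR2B 1 lay among the 89.1 to 236 of the high set. The contractile list had a median of 0.01 and its summed signal was 325049 to 366237 against 337102 to 351594, with the range of the low set inside that of the high set.

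Markers of other cells overlapped between the sets. Of 17 endothelial markers, 13 were higher in the Fbxo32-high arrays, with a median of 0.22, led by Robo4 (0.55), and their summed signal was 17676 to 25602 against 16913 to 19624. Of 26 matrix and fibroblast genes, 20 were higher, with a median of 0.19, led by the crosslinking enzyme Lox (0.69), and the summed signals were 50789.9 to 67614 and 43429.7 to 65435. Of 8 red cell genes, 4 were higher and 4 lower, with differences from -0.29 to 0.68, and the haemoglobin gene Hba-a1 was at 3794 to 10083 in the high and 3037 to 6454 in the low arrays (0.62). Of 18 interferon response genes, 17 were higher, with a median of 0.26, led by Bst2 (0.51) and Ifit3 (0.45). Within the label Dox + sACVR2B these leading members did not keep that direction, with -0.04 for Robo4, -0.09 for Lox, -0.45 for Hba-a1, -0.37 for Bst2 and -0.59 for Ifit3. No summed list separated the sets, and the part of these cells in the values of Fbxo32 or the leading genes was not tested.

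**Figure D5:**
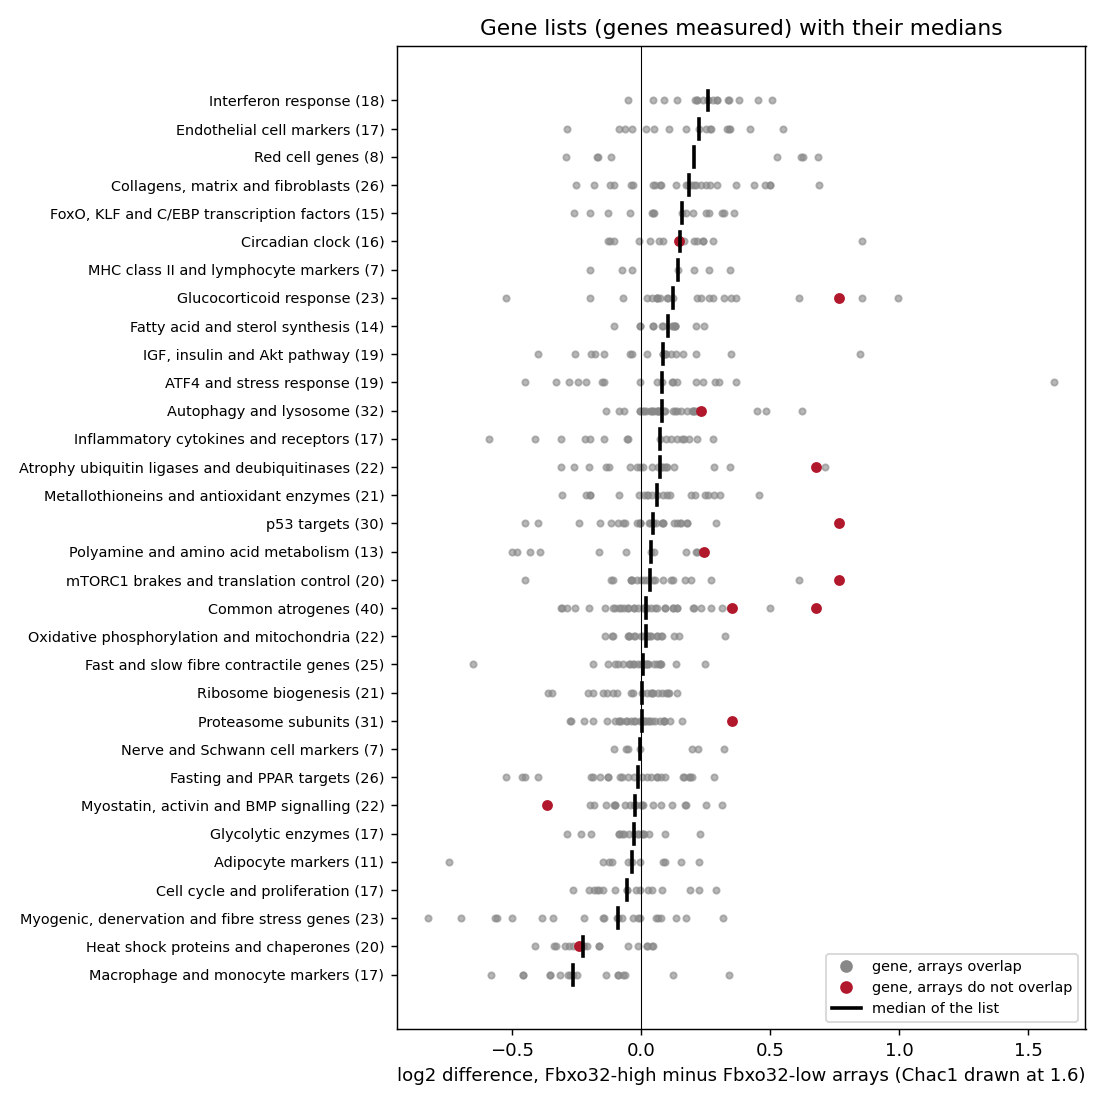
Log2 difference of Fbxo32-high minus Fbxo32-low arrays (x axis) for the genes of 32 lists (y axis, with the number measured); grey points overlap between the sets, red points do not, and black bars are list medians. Fbxo32 and Cdkn1a are left out as points but count in the medians, which run from -0.27 for macrophage markers to 0.26 for interferon response genes.

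The p21-low arrays, which the split did not use, gave no common side. Of the 6 genes higher by 1.5-fold without overlap other than Fbxo32, their mean was nearer the Fbxo32-low set in 4 and nearer the high set in 2, and of the 6 lower genes it was again 4 and 2. Over any fold, of 123 higher genes the mean was nearer the low set in 52 and nearer the high set in 71, and of 63 lower genes in 26 and 37. Fbxo32 itself had a log2 mean of 11.07 in these arrays, close to the 11.20 ± 0.33 (SD, n = 4) of the low set and below the 12.57 ± 0.38 (SD, n = 6) of the high set. In Adh1, Klhl38, Rab27a and Sesn1 each Fbxo32-high array was above all 9 others, in Lrrc2 each Fbxo32-low array was below all 11 others, and Trim63 did neither. For Rab27a the margin was narrow, with signals of 87.5 in Dox + sACVR2B 3 and 85.9 in Ctrl 3 and a noise SD of 7.52.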

How the data were processed

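TA muscle RNA of 15 mice was measured with Illumina bead arrays. Deposited values are linear intensity, background-subtracted and quantile-normalised by the authors; 34.0% are below 0. Another 30 columns of non-normalised values could not be matched to samples by name and were left out. Of 45281 probes, 34885 had 1 gene in the platform annotation. The noise SD, from values below 0, was 7.52, and probes above 12.4 (1.645 SDs) in at least 5 arrays were kept, 21307 probes and 11458 genes by their brightest probe. Levels are log2(signal + 50).

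Arrays were chosen on Cdkn1a and split on Fbxo32, so the sets were compared without a test. Labels were compared with limma 3.58.1 in R 4.3.3, two-sided, adjusted by Benjamini-Hochberg over the kept probes; nothing states whether RNA of a label shared a batch, and p-values measure the spread between these arrays. The procedure was tested on simulated data. Named genes were the 12 widest in each direction among genes apart by 1.5-fold, up to 4 members of each list, members that alone did not overlap, and a few chosen after their values were seen. The members, lists and alternatives were chosen with earlier results of these data known. Alternatives were other offsets, filters, normalisation, probes, splits and models, and leaving out each array. Python 3.11.15 with pandas 2.3.3 and matplotlib 3.10.9 was used.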

Additional observations from a re-analysis of the deposited data

Results flagged for a closer look

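Among 70 combinations of a leading gene with a label or a set of arrays, 4 held 1 array far from its fellows by Dixon's criterion, which chance alone meets in about 1 in 20. Fbxo32 in Dox 3 had a log2 level of 12.15, against 10.96 to 11.11 in the other libraries labelled Dox. Cdkn1a in Dox 2 was at 7.50, against 11.23 to 11.99 in the others of that label. Both of these values entered the choice of arrays. Rab27a in Dox 5 was at 6.59, against 6.97 to 7.03 in the other Fbxo32-low arrays. Uhrf1 in Ctrl 2, a p21-low array, was at 7.57, against 5.94 to 6.33 in the other libraries labelled Ctrl.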

How the results depend on the processing

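The count of 13 genes apart by 1.5-fold was 11 to 14 under an offset of 100, no filter on dim probes, cyclic loess, the median over probes and, both chosen after seeing the data, noise in at least 4 arrays or 3 noise SDs. All 13 were among them except 2 with the offset of 100 and 1 with the median over probes. The count was 29 with an offset of 16 (21 higher and 8 lower), 87 with the split at the widest gap in Fbxo32 (3 against 7 arrays), of which 9 were among the 13, and 47 with 5 against 5 arrays, of which 6 were. A fold of 2 left 3 genes and no limit on the fold gave 187. Leaving out 1 array gave 12 to 95, where having fewer arrays makes a lack of overlap easier to reach. A second probe reversed 2 genes without overlap, Psme4 at -0.031 and Id2 at 0.084. By label, limma called 0 probes in each comparison under all 8 other models and scalings, the replicate block included. Deviations of same-numbered arrays from their label means correlated at -0.38 to 0.35, with 4 of 15 pairs over 0.1. Because these means rest on labels in doubt, the correlations cannot show whether same-numbered arrays shared a batch. Leaving out 1 of 15 arrays gave 0 to 2 probes for Dox against Ctrl (2 without Ctrl 5), 0 to 1 for Dox + sACVR2B against Ctrl (1 without Ctrl 5) and 0 for Dox + sACVR2B against Dox. For single named genes 1959 of the other values moved by less than 1 pooled SD and 138 by more. Signals near the noise threshold, as for Uhrf1, limit what can be read from dim genes.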
